A study of Oryza sativa with 48 samples.

Results

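The transcripts of elongating leaves of the rice cultivar M202 were compared between day 3 and day 1 of complete submergence, an interval in which the plants stayed under water throughout. The comparison rests on 6 of the 48 libraries of the series, chosen by their labels alone: 3 libraries of M202 elongating leaves after 3 days under water and 3 of M202 elongating leaves after 1 day. The study sampled elongating and non-elongating leaves of M202 and of M202(Sub1), a near-isogenic line that carries the submergence tolerance gene SUB1A, on days 0, 1, 3 and 6, with 3 independent biological replicates in each of 16 groups. All plants were raised in greenhouse pots to the 4.2-leaf stage, had no other treatment in the labels, and were sampled straight after they left the water. The elongating leaf was the fifth, and the lower leaves served as non-elongating leaves. Plants kept in air until day 3 were not analysed here, so the duration of submergence, the age of the leaf and the date of sampling cannot be told apart.

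Under water, gas exchange is slow, so oxygen and sugars run short while the gas hormone ethylene is trapped in the tissue. Rice leaves then ferment pyruvate to ethanol, draw on sugar and starch reserves, and, in cultivars without SUB1A, elongate under the drive of gibberellin. When reserves are spent, leaves dismantle chlorophyll and protein, a programme shared with senescence.

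The day 3 libraries held 6403889, 6080716 and 5948386 counts, and the day 1 libraries 9488938, 7908179 and 7109449. Levels are given as CPM, counts scaled for the size and composition of the library and not for the length of the gene. Log2 changes are day 3 over day 1, with the standard error (SE) of the fit. Across genes, replicate libraries correlated at 0.9718 to 0.9727 on day 3 and 0.9769 to 0.9795 on day 1, and libraries of the 2 days at 0.95 to 0.9532. A gene was called changed at an adjusted p under 0.05 in the quasi-likelihood test of edgeR, adjusted over all 21453 tested genes.

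Between day 1 and day 3 the levels of many transcripts changed. Of the tested genes, 4786 (22.3%) were called, 2422 of them higher on day 3 (11.3%) and 2364 lower (11%). A change of at least 2-fold was called for 1620 genes (7.55%), 972 higher and 648 lower. At 4-fold or more there were 288 higher and 124 lower genes, and at 8-fold or more 115 higher and 43 lower genes. The day 3 and day 1 libraries did not overlap for 8732 tested genes (40.7%), and 4643 of these were among the called genes. The median log2 change of all tested genes was 0.0071, a value that the scaling of the libraries holds near 0. Transcripts of high CPM were more often lower than higher: of 2002 genes above 100 CPM, 810 were called, and 29% of these were higher on day 3. Of the 1116 called genes between 1 and 10 CPM, 67.7% were higher. Genes called lower held 20.2% of all CPM on day 3 and 30.2% on day 1, while genes called higher held 13.1% on day 3 and 6.89% on day 1. In whole leaves, fewer cells of a type and less RNA per cell cannot be told apart. The gene lists below are to be read against the 11.3% and 11% of all tested genes: 1 called member of about 10 in either direction is near that background. Every gene given below by its 6 library values, except PCNA, had day 3 and day 1 libraries that did not overlap.

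**Figure D1:**
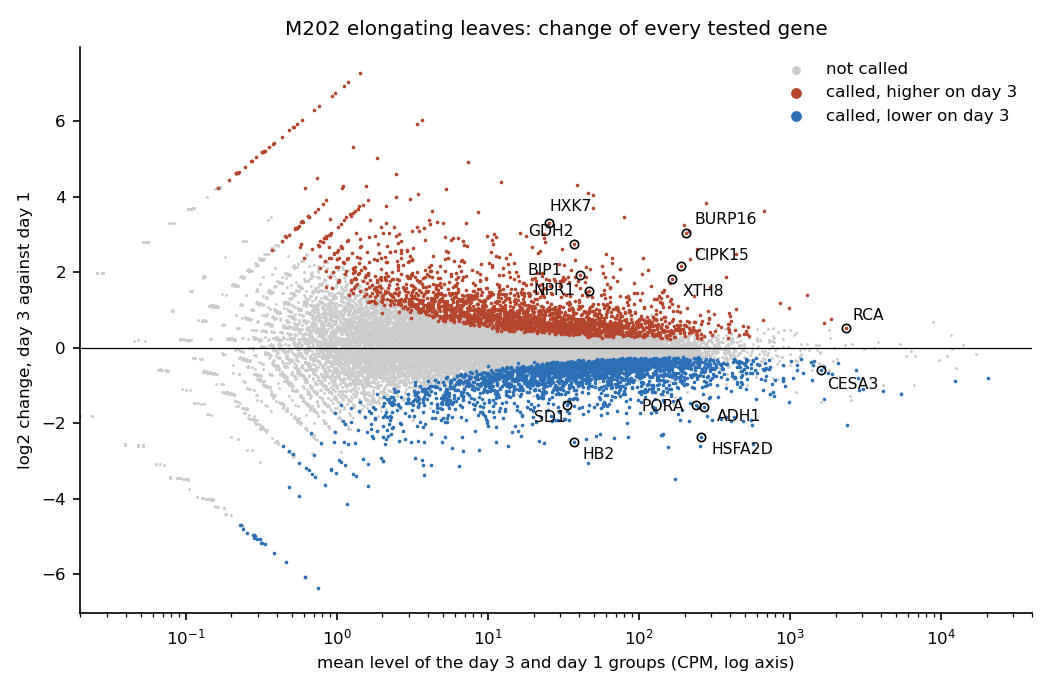
Each point is 1 of the 21453 tested genes, with the mean of its day 3 and day 1 levels (CPM, log axis) across and its log2 change (day 3 against day 1) up. Red points are the 2422 genes called higher on day 3, blue points the 2364 called lower, and ringed points are genes described in the text. Straight rows of points at low levels are genes with no counts on one of the days.

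Of 7 tested genes of fermentation and low oxygen metabolism, 3 had fallen by day 3 and 1 had risen, with a median log2 change of -1.43. ADH1 (OS11G0210300), the alcohol dehydrogenase that makes ethanol, had 149, 134 and 125 CPM in the day 3 libraries, against 394, 408 and 405 CPM in the day 1 libraries. All 3 day 3 libraries lay far below all 3 day 1 libraries, a 2.96-fold lower level (log2 change -1.57 ± 0.15, SE, adjusted p = 2.4e-11). PDC1 (OS05G0469600), a pyruvate decarboxylase that feeds it with acetaldehyde, had 2.63, 3.48 and 1.85 CPM in the day 3 libraries, against 5.32, 7.34 and 9.14 CPM in the day 1 libraries (log2 change -1.43 ± 0.28, SE, adjusted p = 1.9e-04). HB2 (OS03G0226200), a plant haemoglobin of the kind that scavenges nitric oxide at low oxygen, had 14.9, 10.1 and 8.43 CPM in the day 3 libraries, against 64.7, 58.7 and 66.4 CPM in the day 1 libraries. It was 5.65-fold lower on day 3 (log2 change -2.50 ± 0.24, SE, adjusted p = 5.4e-11), the steepest fall among the named genes with counts on both days. PPDKB (OS05G0405000), a pyruvate phosphate dikinase, which interconverts pyruvate and phosphoenolpyruvate, went the other way, with 233, 219.6 and 285 CPM in the day 3 libraries, against 131, 114 and 136 CPM in the day 1 libraries, and rose (log2 change 0.95 ± 0.11, SE, adjusted p = 6.7e-09). The 3 members that were not called, ADH2, PDC2 and AOX1a, had means of at most 5.10 CPM.

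A kinase of the sugar starvation pathway and a hexokinase rose. CIPK15 (OS11G0113700), a kinase that couples oxygen deficiency to sugar starvation signalling in rice, had 311, 313 and 307 CPM in the day 3 libraries, against 68.8, 64.3 and 75.1 CPM in the day 1 libraries. The groups stood apart by 4.48-fold (log2 change 2.16 ± 0.16, SE, adjusted p = 2.3e-14). CIPK14 (OS12G0113500), its close copy on chromosome 12, named after its values were seen, rose too, with 607, 569.6 and 593 CPM on day 3, against 147, 162 and 175 CPM on day 1 (log2 change 1.87 ± 0.14, SE, adjusted p = 1.9e-14). The 2 genes are so alike that the counting may have split or shared their reads. HXK7 (OS05G0187100), a hexokinase that phosphorylates glucose, had 45.2, 40.8 and 52.4 CPM in the day 3 libraries, against 5.91, 4.61 and 3.25 CPM in the day 1 libraries, 9.86-fold more on day 3 (log2 change 3.30 ± 0.20, SE, adjusted p = 7.8e-18). This was the largest rise of any named gene above 20 CPM. Some genes outside the named set rose by more, among them OS12G0189300 (log2 change 3.84 ± 0.16). The transcription factor MYBS1 (OS01G0524500), which acts below CIPK15 as an activator of alpha amylase genes, went against the kinase, with 36.4, 26.5 and 29.0 CPM in the day 3 libraries, against 72.0, 92.7 and 72.5 CPM in the day 1 libraries (log2 change -1.36 ± 0.20, SE, adjusted p = 5.9e-07). Its antagonist MYBS3 (OS10G0561400) fell less, with 295 ± 14.4 CPM on day 3 and 404 ± 3.00 CPM on day 1 (SD, n = 3 each) (log2 change -0.45 ± 0.10, SE, adjusted p = 5.9e-04). SnRK1A, the kinase between CIPK15 and the MYBS factors, had 5.50 ± 1.85 CPM on day 3 and 6.91 ± 1.14 CPM on day 1 and was not called (adjusted p = 0.46). AMY3D (OS08G0473900), an alpha amylase known to respond to sugar starvation, was barely detected, with 2.17, 3.15 and 3.37 CPM on day 3, against 0.473, 0.576 and 0 CPM on day 1, yet above in all day 3 libraries (log2 change 2.94 ± 0.69, SE, adjusted p = 0.0014). The third member that fell was the amylase AMY2A, at 7.17 CPM on day 3 and 13.7 CPM on day 1 (log2 change -0.94 ± 0.24). Of 10 tested members of the list of alpha amylases and sugar starvation signalling, to which HXK7 and CIPK14 do not belong, 2 rose and 3 fell, and the median was -0.27.

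Sucrose synthases, which split sucrose without spending ATP, rose in part with the hexokinase. SUS1 (OS03G0401300) had 8.67, 9.12 and 7.92 CPM on day 3, against 2.84, 3.45 and 1.24 CPM on day 1 (log2 change 1.74 ± 0.33, SE, adjusted p = 8.0e-05). SUS4 (OS03G0340500) had 38.9, 38.3 and 39.8 CPM on day 3, against 23.7, 24.8 and 29.6 CPM on day 1 (log2 change 0.59 ± 0.17, SE, adjusted p = 0.011), and its call was lost without day 1 library 1 (adjusted p up to 0.0602). SUS2 (OS06G0194900) had 63.2 ± 9.39 CPM on day 3 and 49.1 ± 3.52 CPM on day 1 and was not called (adjusted p = 0.071). Of 11 tested genes of sucrose breakdown and hexokinases, 3 rose and 0 fell, with a median of 0.36. Of 10 tested sugar transport genes 2 rose, 2 fell and 6 were not called, with a median of 0.07. The sugar exporters SWEET11 (OS08G0535200) (log2 change 1.5 ± 0.27) and SWEET14 (OS11G0508600) (log2 change 1.55 ± 0.40) rose, while SWEET1a (OS01G0881300) (log2 change -0.62 ± 0.11) and the sucrose transporter SUT2 (OS12G0641400) (log2 change -0.53 ± 0.13) fell. SWEET11 had 34.1, 31.0 and 23.9 CPM on day 3, against 8.28, 8.64 and 14.9 CPM on day 1, and SUT2 had 63.2, 78.6 and 62.4 CPM on day 3, against 97.2, 85.8 and 111 CPM on day 1. Of the starch list, 1 of 5 tested members was called, the starch synthase SSI (OS06G0160700), which fell, with 12.4 ± 1.95 CPM on day 3 and 20.9 ± 0.389 CPM on day 1 (log2 change -0.75 ± 0.15).

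Most tested genes of chlorophyll breakdown and senescence were higher on day 3 than on day 1. Of 9 tested members 6 rose and 1 fell, with a median log2 change of 1.13, beside 0.0071 over all tested genes. In fits without 1 library, 4 to 5 members were called higher. Of the days sampled, day 1 had the lowest levels of GDH2, SGR and NYC1. GDH2 (OS04G0543900), a glutamate dehydrogenase that releases carbon skeletons from amino acids, had 60.1, 62.0 and 71.6 CPM in the day 3 libraries, against 11.1, 8.92 and 8.83 CPM in the day 1 libraries. That is 6.66-fold more on day 3 (log2 change 2.74 ± 0.18, SE, adjusted p = 9.3e-16). GDH1 (OS03G0794500), its sister gene, had 37.6, 34.2 and 41.3 CPM on day 3, against 10.7, 10.9 and 10.2 CPM on day 1 (log2 change 1.83 ± 0.17, SE, adjusted p = 3.4e-11). SGR (OS09G0532000), the Stay-Green protein that starts chlorophyll breakdown, had 13.9, 18.2 and 11.97 CPM on day 3, against 2.72, 2.303 and 4.49 CPM on day 1 (log2 change 2.23 ± 0.35, SE, adjusted p = 3.6e-06). NYC1 (OS01G0227100), the reductase that converts chlorophyll b, had 110, 115 and 124 CPM on day 3, against 46.7, 56.9 and 55.9 CPM on day 1 (log2 change 1.13 ± 0.11, SE, adjusted p = 2.6e-11). In each of these 4 genes every day 3 library lay above every day 1 library. The chlorophyll catabolite reductase RCCR1 had 3.71 ± 1.39 CPM on day 3 and 1.36 ± 0.255 CPM on day 1 (log2 change 1.43 ± 0.38), and NOL, the partner of NYC1, had 82.5 ± 1.67 CPM on day 3 and 63.5 ± 4.07 CPM on day 1 (log2 change 0.38 ± 0.14). The autophagy gene ATG8C, at 37.4 ± 5.98 CPM on day 3 and 50.4 ± 6.32 CPM on day 1 (log2 change -0.43 ± 0.14), was the member that fell. The RCCR1 call was lost without day 3 library 1 (adjusted p up to 0.0624) and the ATG8C call without day 3 library 2 or 3 or day 1 library 2 or 3 (adjusted p up to 0.127), and the NOL call was lost whichever of the 6 libraries was left out (adjusted p up to 0.144).

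**Figure D2:**
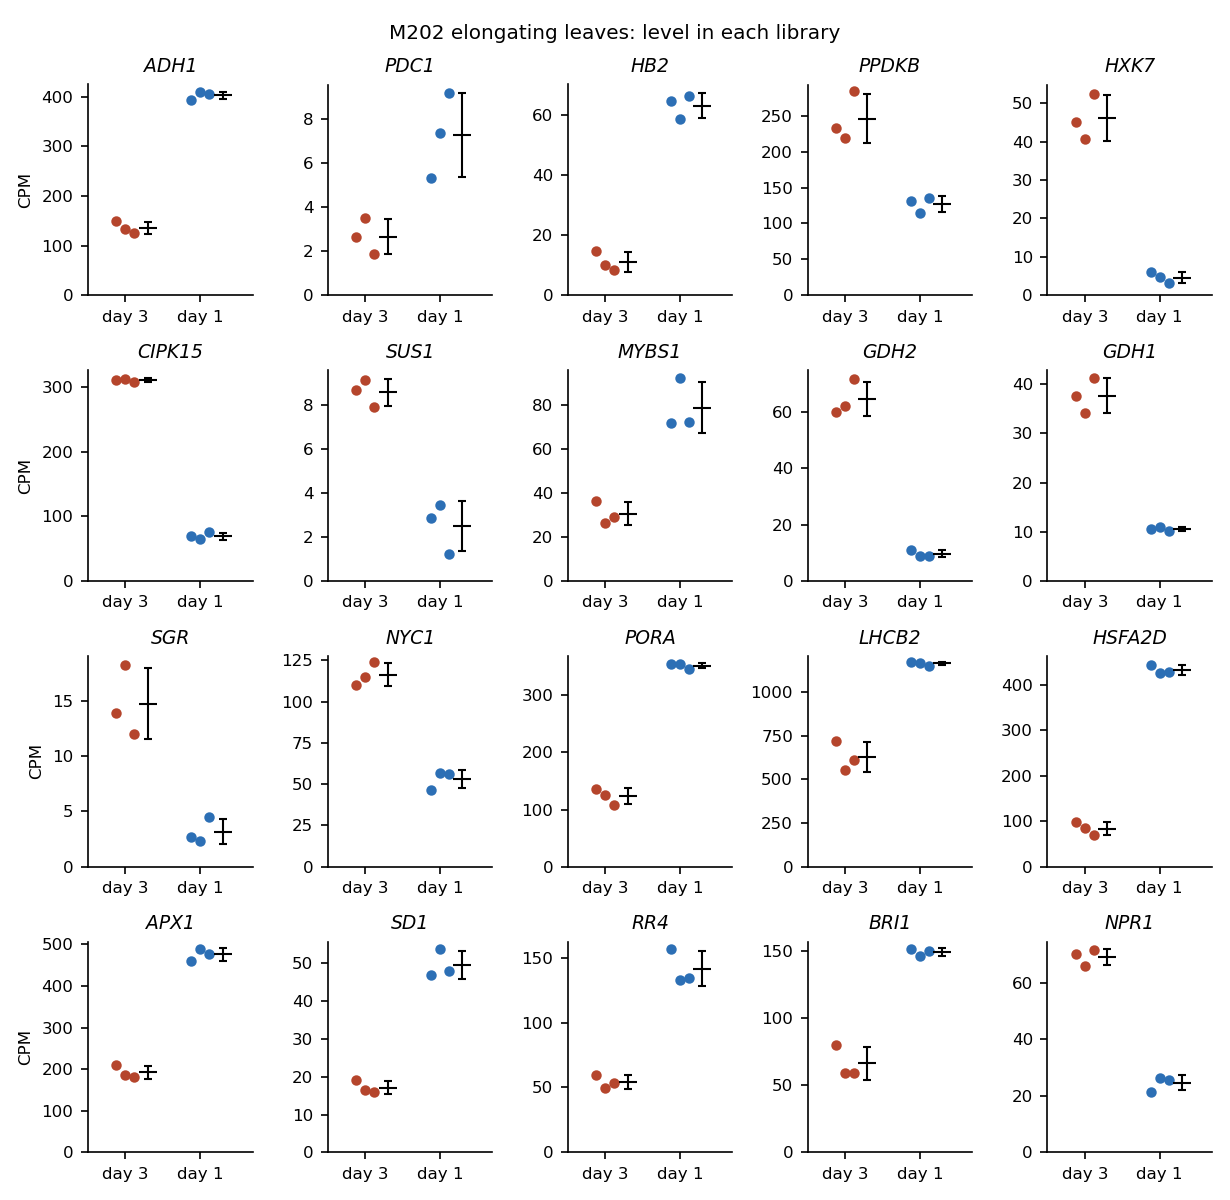
Levels (CPM) of 20 genes in the 3 day 3 libraries (red, left) and the 3 day 1 libraries (blue, right) of M202 elongating leaves, with the mean and SD of each group beside its points. The 2 groups of points overlap in none of the panels: ADH1 lies at 125 to 149 CPM on day 3 and 394 to 408 CPM on day 1, and HXK7 at 40.8 to 52.4 CPM on day 3 and 3.25 to 5.91 CPM on day 1.

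In chlorophyll synthesis and light harvesting, every called gene fell. PORA (OS04G0678700), a protochlorophyllide reductase of the light-dependent step, had 136, 126 and 108 CPM in the day 3 libraries, against 355, 354 and 346 CPM in the day 1 libraries, 2.85-fold less on day 3 (log2 change -1.51 ± 0.24, SE, adjusted p = 5.6e-06). CHLD (OS03G0811100), a subunit of magnesium chelatase, had 155 ± 6.54 CPM on day 3 and 198 ± 10.4 CPM on day 1 (log2 change -0.36 ± 0.11), and CAO1 (OS10G0567400), which makes chlorophyll b, had 946 ± 67.7 CPM on day 3 and 1292 ± 35.0 CPM on day 1 (log2 change -0.45 ± 0.12). Of 10 tested genes of chlorophyll synthesis 0 rose and 3 fell, with a median of -0.35. The antenna protein LHCB2 (OS03G0592500) had 720, 553 and 610 CPM on day 3, against 1171, 1168 and 1151 CPM on day 1 (log2 change -0.89 ± 0.19, SE, adjusted p = 2.8e-04). LHCB1.2 had 1386 ± 133 CPM on day 3 and 1988 ± 31.3 CPM on day 1 (log2 change -0.52 ± 0.19). LHCB3 had 346 ± 50.0 CPM on day 3 and 429 ± 14.1 CPM on day 1 and was not called (adjusted p = 0.11). PSBQ (OS07G0544800), a subunit of the oxygen-evolving complex, fell (log2 change -0.82 ± 0.16, SE, adjusted p = 1.4e-04), while FNR1 (OS06G0107700), the ferredoxin reductase at the end of the electron chain, rose, at 30.6 ± 5.61 CPM on day 3 and 19.9 ± 3.01 CPM on day 1 (log2 change 0.62 ± 0.23). The FNR1 call was lost without day 3 library 2 or 3 or day 1 library 1 or 3 (adjusted p up to 0.166). The CHLD call was lost without day 3 library 2 or 3 or day 1 library 3 (adjusted p up to 0.0883), and the LHCB1.2 call was lost whichever library was left out (adjusted p up to 0.136).

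In carbon fixation and photorespiration 1 gene of each list was called, and both were higher on day 3 than on day 1. RCA (OS11G0707000), rubisco activase, had 3221, 2239 and 2832 CPM in the day 3 libraries, against 1971, 1861 and 1927 CPM in the day 1 libraries, and was higher on day 3 (log2 change 0.53 ± 0.19, SE, adjusted p = 0.04). RCA had the highest CPM of all genes called higher, but its call was lost without day 3 library 1 or 3 or day 1 library 1, 2 or 3 (adjusted p up to 0.175). RCA averaged 5327 CPM on day 0 and 1592 CPM on day 6, so its day 3 level stayed below that of day 0. GDCH (OS10G0516100), a subunit of the glycine decarboxylase of photorespiration, rose with 57.6, 50.6 and 69.3 CPM on day 3, against 30.8, 39.9 and 32.7 CPM on day 1 (log2 change 0.78 ± 0.16, SE, adjusted p = 1.9e-04). The plastid aldolase FBA had 6122 ± 335 CPM on day 3 and 6445 ± 168 CPM on day 1 and plastocyanin (PETE) 604 ± 60.2 CPM on day 3 and 604 ± 63.1 CPM on day 1 (SD, n = 3 each), and neither was called (adjusted p = 0.8 and adjusted p = 1). Of 3 tested Calvin cycle genes 1 rose and 0 fell, and of 4 genes of photorespiration and catalases 1 rose and 0 fell.

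Among gibberellin genes every called member fell. SD1 (OS01G0883800), the gibberellin 20-oxidase whose loss gives semi-dwarf rice, had 19.1, 16.4 and 15.8 CPM in the day 3 libraries, against 46.7, 53.7 and 47.9 CPM in the day 1 libraries. It was 2.88-fold lower on day 3, with no overlap (log2 change -1.53 ± 0.22, SE, adjusted p = 4.3e-07). GID1 (OS05G0407500), the gibberellin receptor, had 27.7, 30.5 and 29.3 CPM on day 3, against 54.3, 54.7 and 56.7 CPM on day 1 (log2 change -0.92 ± 0.14, SE, adjusted p = 3.5e-06). KO2 (OS06G0570100), an ent-kaurene oxidase early in gibberellin synthesis, had 22.5 ± 0.531 CPM on day 3 and 31.9 ± 2.40 CPM on day 1 (log2 change -0.50 ± 0.14). SLR1, the repressor that gibberellin removes, had 31.1 ± 6.23 CPM on day 3 and 27.2 ± 2.18 CPM on day 1 and was not called (adjusted p = 0.67). Of 9 tested gibberellin genes 0 rose and 3 fell (median -0.15).

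Of the cytokinin response regulators, which are transcribed when cytokinin is sensed, 5 fell, as did the brassinosteroid receptor. RR4 (OS01G0952500) had 59.9, 49.4 and 53.4 CPM on day 3, against 157, 132 and 135 CPM on day 1 (log2 change -1.38 ± 0.15, SE, adjusted p = 4.8e-10), and RR6 (OS04G0673300) had 36.1, 26.2 and 29.2 CPM on day 3, against 99.2, 83.9 and 73.7 CPM on day 1 (log2 change -1.49 ± 0.24, SE, adjusted p = 5.8e-06). RR9 (log2 change -1.14 ± 0.21), RR10 (log2 change -1.27 ± 0.20) and RR2 (log2 change -0.56 ± 0.17) fell as well, the last with a call lost without day 3 library 3 (adjusted p up to 0.0873). RR9 and RR10 lie on the duplicated ends of chromosomes 11 and 12 and may share reads. BRI1 (OS01G0718300), the brassinosteroid receptor, had 80.2, 59.4 and 59.0 CPM on day 3, against 151, 146 and 150.2 CPM on day 1 (log2 change -1.17 ± 0.16, SE, adjusted p = 1.6e-07). Of 11 tested genes of brassinosteroid, cytokinin and auxin, 6 fell and 0 rose, with a median of -0.56.

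Among ethylene genes 2 of the 10 tested were called. The receptor ETR2 (OS04G0169100) had 185, 149 and 158 CPM on day 3, against 266, 269 and 272 CPM on day 1 (log2 change -0.71 ± 0.13, SE, adjusted p = 4.5e-05), and ERS1 had 13.8 ± 2.83 CPM on day 3 and 8.78 ± 0.426 CPM on day 1 (log2 change 0.66 ± 0.24). ACS5 (OS01G0192900), which makes the ethylene precursor, had 9.24 ± 1.52 CPM on day 3 and 16.3 ± 2.38 CPM on day 1 and missed the threshold (adjusted p = 0.052), but was called by DESeq2 (adjusted p = 0.043), with no filter (0.033), with halved counts (0.041) and when only the groups compared were fitted (0.0032). Of 10 tested members 1 rose and 1 fell (median -0.44), and the ERS1 call was lost without day 3 library 1 or 3 or day 1 library 1, 2 or 3 (adjusted p up to 0.19). EREBP1 (OS02G0782700), the one group VII ethylene response factor with a checked name, had 111, 74.5 and 98.4 CPM on day 3, against 50.7, 63.0 and 59.8 CPM on day 1 (log2 change 0.71 ± 0.15, SE, adjusted p = 2.2e-04).

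In abscisic acid metabolism, ZEP1 (OS04G0448900), a zeaxanthin epoxidase of its synthesis, had 268, 233 and 260.1 CPM on day 3, against 369, 364 and 391 CPM on day 1 (log2 change -0.56 ± 0.12, SE, adjusted p = 3.0e-04). The breakdown enzyme ABA8ox2 rose (log2 change 1.88 ± 0.58) at 3.27 CPM on day 3 and 0.876 CPM on day 1, as did the response factor TRAB1 (log2 change 0.63 ± 0.22) at 16.8 CPM on day 3 and 10.8 CPM on day 1. Of 10 tested members 2 rose and 1 fell. The ABA8ox2 call was lost without day 3 library 3 or day 1 library 2 (adjusted p up to 0.0925) and the TRAB1 call without day 3 library 1 or 3 or day 1 library 2 or 3 (adjusted p up to 0.174).

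**Figure D3:**
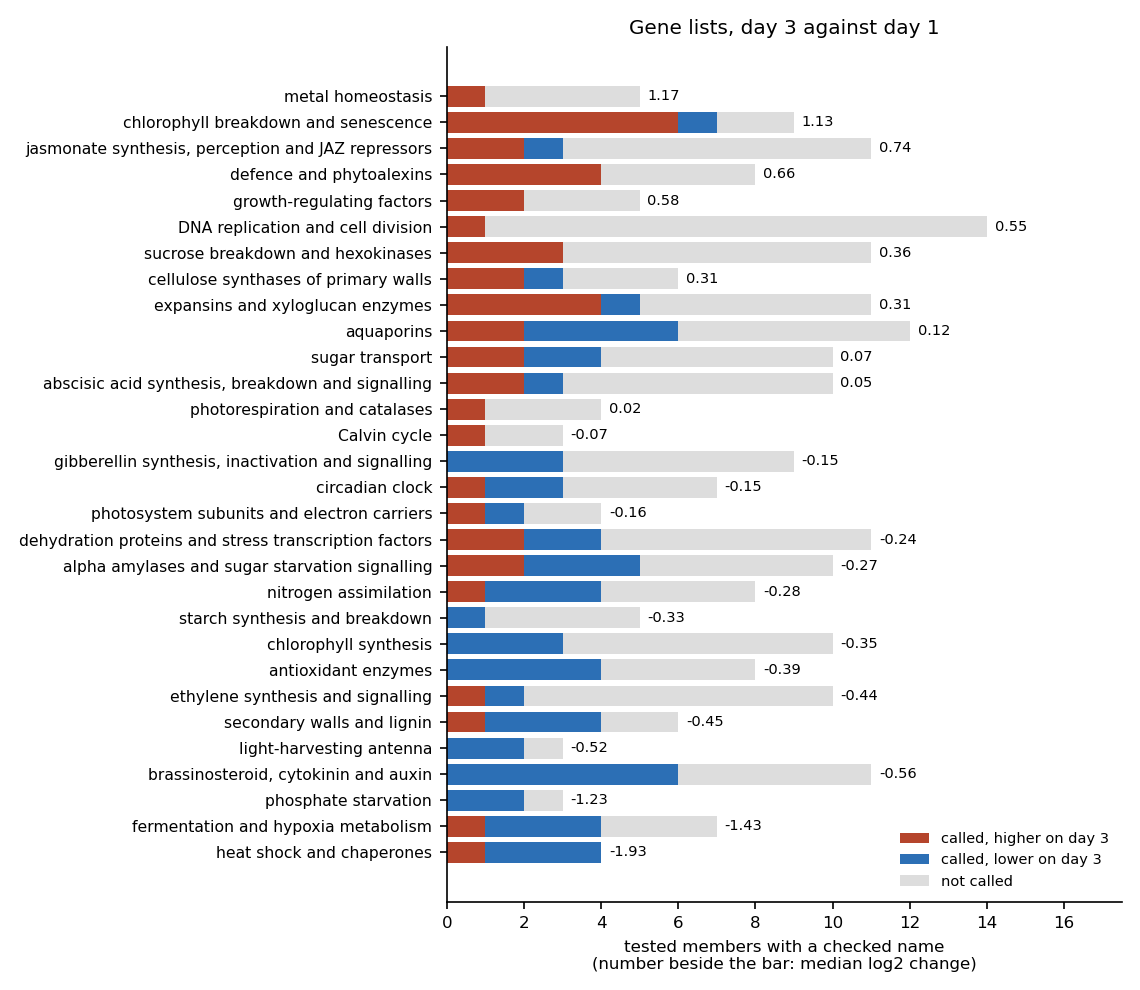
Tested members of each gene list with at least 3 of them, split into called higher on day 3 (red), called lower (blue) and not called (grey), with the median log2 change beside each bar and lists ordered by it. Chlorophyll breakdown and senescence has 6 of 9 members higher and a median of 1.13, and heat shock and chaperones has 3 of 4 lower and a median of -1.93.

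Heat shock factors, switches of chaperone genes, fell steeply. HSFA2D (OS03G0161900) had 97.6, 84.9 and 68.8 CPM in the day 3 libraries, against 445, 426 and 428 CPM in the day 1 libraries. The day 3 level was 5.17-fold lower (log2 change -2.37 ± 0.13, SE, adjusted p = 1.7e-18), and among named genes this was the call with the smallest adjusted p. HSFA2C (OS10G0419300) had 12.7, 12.8 and 16.85 CPM on day 3, against 39.5, 42.6 and 37.2 CPM on day 1 (log2 change -1.5 ± 0.20, SE, adjusted p = 1.6e-07). HSFA2A had no counts on day 3, against 0.946, 0.864 and 1.86 CPM on day 1, at least 2.5-fold lower against a floor of 3 counts per library (adjusted p = 0.0059). Of the chaperone names looked up after the values were seen, CLPB-M, HSP24.1 and HSP81-1 (log2 change -0.61 ± 0.16) fell, and HSP26.7, HSP23.2, HSP81-2 and HSP81-3 were not called. CLPB-M (OS02G0181900), of the ClpB chaperones, had 22.3, 18.7 and 14.5 CPM on day 3, against 92.3, 87.2 and 94.3 CPM on day 1 (log2 change -2.3 ± 0.25, SE, adjusted p = 9.5e-10), and the small heat shock gene HSP24.1 (OS02G0758000) had 6.97, 7.96 and 8.26 CPM on day 3, against 28.4, 35.4 and 30.0 CPM on day 1 (log2 change -2.02 ± 0.26, SE, adjusted p = 4.2e-08). BIP1 (OS02G0115900), the chaperone of the endoplasmic reticulum, went the other way, with 77.7, 55.1 and 58.8 CPM on day 3, against 19.0, 16.8 and 14.6 CPM on day 1 (log2 change 1.92 ± 0.22, SE, adjusted p = 6.0e-09). In this list of 4 tested genes, BIP1 alone rose and the 3 factors fell.

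Of 8 tested antioxidant enzymes 4 fell and 0 rose (median -0.39). APX1 (OS03G0285700), the cytosolic ascorbate peroxidase, had 209.5, 186 and 180.5 CPM on day 3, against 459.8, 489 and 478 CPM on day 1, 2.48-fold less on day 3 (log2 change -1.31 ± 0.15, SE, adjusted p = 6.6e-09). The chloroplast peroxidase APX8 (log2 change -0.57 ± 0.19) and the superoxide dismutases SODA1 (log2 change -0.44 ± 0.12) and SODCC1 (log2 change -0.40 ± 0.12) fell by less. These 3 calls were lost in some fits: APX8 without day 3 library 2 or 3 or day 1 library 1 or 3 (adjusted p up to 0.126), SODA1 without day 1 library 3 (adjusted p up to 0.0954) and SODCC1 without day 3 library 2 or day 1 library 2 (adjusted p up to 0.0578).

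Wall genes moved in both directions. XTH8 (OS08G0237000), a xyloglucan endotransglucosylase that cuts and rejoins wall polymers, had 329.6, 215 and 231 CPM in the day 3 libraries, against 63.4, 81.5 and 76.8 CPM in the day 1 libraries, 3.50-fold more on day 3 (log2 change 1.81 ± 0.26, SE, adjusted p = 6.6e-07). The beta expansin EXPB3 (OS10G0555900), of the proteins that loosen walls, had 39.3, 32.7 and 31.9 CPM on day 3, against 10.8, 9.36 and 12.1 CPM on day 1 (log2 change 1.69 ± 0.22, SE, adjusted p = 5.5e-08). EXPB11 (log2 change 2.17 ± 0.38) and EXPB4 (log2 change 1.11 ± 0.30) rose too, the EXPB4 call being lost without day 3 library 1 (adjusted p up to 0.0537), and EXPB7 fell (log2 change -1.14 ± 0.27). EXPA4 had 13.3 ± 2.79 CPM on day 3 and 14.2 ± 0.276 CPM on day 1 and was not called (adjusted p = 0.83). Of 11 tested members of the expansin and xyloglucan list 4 rose and 1 fell.

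Among cellulose synthases of primary walls, CESA3 (OS07G0424400) had 1240, 1413 and 1196 CPM on day 3, against 1913, 1982 and 1909 CPM on day 1 (log2 change -0.59 ± 0.12, SE, adjusted p = 1.3e-04). CESA2 (log2 change 0.90 ± 0.17) and CESA5 (log2 change 0.62 ± 0.15) rose. CESA2 was at 34.0 CPM on day 3 and 18.1 CPM on day 1, and CESA5 was at 73.4 CPM on day 3 and 47.7 CPM on day 1. CESA1 had 278, 264 and 264 CPM on day 3, against 221, 219.8 and 224 CPM on day 1, which did not overlap but missed the threshold (adjusted p = 0.089). In secondary walls CESA4 (OS01G0750300) had 181 ± 19.8 CPM on day 3 and 297 ± 6.95 CPM on day 1 (log2 change -0.72 ± 0.15). Of the lignin genes, 4CL3 (OS02G0177600), a coumarate-CoA ligase, had 51.9, 55.5 and 32.4 CPM on day 3, against 136, 179 and 152 CPM on day 1 (log2 change -1.74 ± 0.20, SE, adjusted p = 6.0e-09). COMT1 (OS08G0157500), a methyltransferase, had 170, 149 and 131 CPM on day 3, against 326, 331 and 279.5 CPM on day 1 (log2 change -1.05 ± 0.15, SE, adjusted p = 3.9e-07). Of 6 tested genes of secondary walls and lignin 1 rose and 3 fell. CHS1 (OS11G0530600), chalcone synthase at the entry of flavonoid synthesis and named after its values were seen, had 60.9, 69.5 and 52.4 CPM on day 3, against 200.5, 192 and 176 CPM on day 1 (log2 change -1.64 ± 0.17, SE, adjusted p = 1.5e-10). BC1, a protein needed for cellulose assembly, rose at 4.71 CPM on day 3 and 1.80 CPM on day 1 (log2 change 1.37 ± 0.44), with its call lost without day 3 library 1 or 2 or day 1 library 2 or 3 (adjusted p up to 0.0808). BURP16 (OS10G0409400), a BURP domain protein also named after its values were seen, had 341, 295 and 458 CPM in the day 3 libraries, against 39.7, 46.1 and 46.6 CPM in the day 1 libraries, 8.27-fold more on day 3 (log2 change 3.05 ± 0.21, SE, adjusted p = 2.0e-14).

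Aquaporins, the water channels, moved both ways. TIP2-2 (OS06G0336200), of the vacuole membrane, had 341, 304 and 353 CPM in the day 3 libraries, against 115, 129.5 and 139 CPM in the day 1 libraries (log2 change 1.38 ± 0.14, SE, adjusted p = 1.0e-10). TIP1-1 rose by less (log2 change 0.58 ± 0.19). Of the plasma membrane channels, PIP1-2 (OS04G0559700) had 108, 139 and 152 CPM on day 3, against 281, 268 and 235 CPM on day 1 (log2 change -0.98 ± 0.22, SE, adjusted p = 9.1e-04), and PIP2-6 (log2 change -0.89 ± 0.22) and PIP2-1 (log2 change -0.50 ± 0.14) fell with it. The vacuolar TIP4-1 fell as well (log2 change -0.55 ± 0.14). Of 12 tested aquaporins 2 rose and 4 fell, and the calls of TIP1-1 without day 3 library 3 or day 1 library 1, 2 or 3 (adjusted p up to 0.135) and PIP2-1 without day 3 library 3 (adjusted p up to 0.0812) were lost in some fits.

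Of 8 tested defence genes 4 rose and 0 fell. NPR1 (OS01G0194300), the co-activator of salicylic acid responses, had 70.0, 66.0 and 71.5 CPM in the day 3 libraries, against 21.5, 26.5 and 25.7 CPM in the day 1 libraries, 2.82-fold more on day 3 (log2 change 1.5 ± 0.20, SE, adjusted p = 1.0e-07). WRKY71 (OS02G0181300) had 30.7, 23.9 and 22.2 CPM on day 3, against 10.2, 13.2 and 13.5 CPM on day 1 (log2 change 1.07 ± 0.23, SE, adjusted p = 5.5e-04). WRKY62 had 2.48, 2.65 and 3.37 CPM on day 3, against no counts on day 1, and WRKY76 had 1.86, 2.65 and 1.01 CPM on day 3, against no counts on day 1. Against a floor of 3 counts per library these were at least 6.8-fold and 4.42-fold higher on day 3 (adjusted p = 1.6e-04 and adjusted p = 2.7e-04). Of 11 tested jasmonate genes 2 rose, 1 fell and 8 were not called, shares near the background. The JAZ repressors TIFY11D, at 9.19 ± 0.555 CPM on day 3 and 1.59 ± 1.61 CPM on day 1 (log2 change 2.53 ± 0.41), and TIFY10B, at 134 ± 16.89 CPM on day 3 and 80.7 ± 4.79 CPM on day 1 (log2 change 0.74 ± 0.12), rose, while the receptor COI1A fell (log2 change -0.39 ± 0.12). The COI1A call was lost without day 3 library 1 or day 1 library 1 or 2 (adjusted p up to 0.11).

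Stress proteins and regulators of water deficit moved both ways. SALT (OS01G0348900), a lectin induced by salt and drought, had 62.9, 55.4 and 63.7 CPM on day 3, against 13.7, 19.7 and 20.3 CPM on day 1 (log2 change 1.77 ± 0.15, SE, adjusted p = 2.5e-12). NAC5 (OS11G0184900), a stress transcription factor, had 16.4, 13.3 and 13.8 CPM on day 3, against 50.0, 34.8 and 44.8 CPM on day 1 (log2 change -1.57 ± 0.23, SE, adjusted p = 1.1e-06). DREB1A fell (log2 change -1.68 ± 0.51) and the dehydrin gene LIP9 rose (log2 change 1.44 ± 0.44), both with group means of at most 6.596 CPM. Of 11 tested members 2 rose and 2 fell. The calls of DREB1A without day 3 library 3 or day 1 library 2 (adjusted p up to 0.0903) and LIP9 without day 3 library 2 or 3 or day 1 library 3 (adjusted p up to 0.0715) were lost in some fits.

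Of the nitrogen and phosphate genes more fell than rose. GLT2 (OS05G0555600), a glutamate synthase, had 86.7, 79.9 and 83.4 CPM on day 3, against 183, 197 and 203 CPM on day 1 (log2 change -1.22 ± 0.16, SE, adjusted p = 1.3e-07), and nitrate reductase NIA1 (OS08G0468100) had 1.55, 1.99 and 0.674 CPM on day 3, against 4.97, 5.76 and 6.19 CPM on day 1 (log2 change -1.98 ± 0.39, SE, adjusted p = 1.6e-04). The glutamine synthetase GLN1;1 fell (log2 change -0.74 ± 0.21) and the ammonium transporter AMT1;1 (OS04G0509600) rose, with 62.0, 53.7 and 49.4 CPM on day 3, against 25.3, 24.9 and 29.1 CPM on day 1 (log2 change 1.06 ± 0.25, SE, adjusted p = 0.0016). Of 8 tested nitrogen genes 1 rose and 3 fell. The phosphate sensors SPX1 (OS06G0603600), with 26.3, 29.7 and 26.8 CPM on day 3, against 86.6, 76.4 and 69.7 CPM on day 1 (log2 change -1.49 ± 0.14, SE, adjusted p = 1.7e-11), and SPX2 (log2 change -1.23 ± 0.23) fell, and the third member, SPX3, at 0.979 ± 0.0435 CPM on day 3 and 0.980 ± 0.282 CPM on day 1, was not called (adjusted p = 0.99). YSL2, a metal transporter, rose at 6.53 CPM on day 3 and 2.85 CPM on day 1 (log2 change 1.17 ± 0.30).

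The called clock genes changed by less than 2-fold. CCA1 (OS08G0157600), a morning factor of the clock, had 1381, 1196 and 1228 CPM on day 3, against 1673, 1611 and 1587 CPM on day 1 (log2 change -0.36 ± 0.12, SE, adjusted p = 0.033). PRR95 fell (log2 change -0.54 ± 0.11) and PRR37 rose (log2 change 0.92 ± 0.16), so the clock list had 1 higher and 2 lower of 7 tested members. The CCA1 call was lost without day 3 library 2 or 3 or day 1 library 1, 2 or 3 (adjusted p up to 0.132) and with no filter on low counts (adjusted p = 0.0577). The hour of sampling is not given in the labels, and its part in these changes was not tested.

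Of 14 tested genes of DNA replication and cell division 1 was called, and the median log2 change was 0.55, beside 0.0071 over all tested genes. PCNA (OS02G0805200), the sliding clamp of DNA replication, had 9.14, 8.96 and 12.5 CPM on day 3, against 13.4, 15.8 and 9.14 CPM on day 1 and was not called (adjusted p = 0.41). The called gene was MCM3, at 2.47 CPM on day 3 and 0.549 CPM on day 1 (log2 change 2.14 ± 0.69), and its call was lost without day 3 library 1 or 3 or day 1 library 1 or 3 (adjusted p up to 0.124). The growth-regulating factor GRF3 rose (log2 change 0.58 ± 0.16) at 21.0 CPM on day 3 and 14.1 CPM on day 1, and its call was lost without day 3 library 2 (adjusted p up to 0.0508). GRF7 rose (log2 change 1.75 ± 0.61) at 1.58 CPM on day 3 and 0.460 CPM on day 1, with its call lost without day 3 library 1 or 3 or day 1 library 1, 2 or 3 (adjusted p up to 0.196), and the floral regulator MADS14 rose (log2 change 1.25 ± 0.42) at 3.26 CPM on day 3 and 1.36 CPM on day 1, with its call lost without day 3 library 2 or 3 or day 1 library 2 (adjusted p up to 0.128).

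The called genes of highest CPM include identifiers without a checked name. OS11G0703900 had 2408, 2202 and 2401 CPM on day 3, against 1431, 1424 and 1312 CPM on day 1, and OS12G0291100 had 1555, 2007 and 2625 CPM on day 3, against 1251, 1406 and 1257 CPM on day 1, and both rose (adjusted p = 8.2e-06 and adjusted p = 0.0087). The call of OS12G0291100 was lost without day 3 library 3 (adjusted p up to 0.12). On day 0, OS11G0703900 averaged 713 CPM and OS12G0291100 averaged 10290 CPM, so the latter stayed below its day 0 level on day 3. OS10G0356000 had 7082, 9123 and 9912 CPM on day 3, against 14050, 16200 and 17960 CPM on day 1 and OS03G0227800 had 3346, 3501 and 3015 CPM on day 3, against 7386, 7832 and 7724 CPM on day 1, and both fell (adjusted p = 9.4e-04 and adjusted p = 5.5e-08). All 4 show groups that do not overlap. The called gene of highest CPM, also without a checked name, had 13000, 17830 and 13860 CPM on day 3, against 26410, 30950 and 21140 CPM on day 1 (log2 change -0.81 ± 0.30, SE, adjusted p = 0.045). Its call was lost without day 3 library 1 or 3 or day 1 library 1 or 2 (adjusted p up to 0.173), with DESeq2 and with upper-quartile scaling.

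Day 0 and day 6 place these levels in the course of the whole experiment. Between day 6 and day 0, 53.5% of the tested genes were called, and the levels below are given as a description. ADH1 averaged 13.5, 403, 136 and 32.3 CPM on days 0, 1, 3 and 6, and HB2 0.198, 63.3, 11.1 and 1.59 CPM, both highest on day 1. SD1 had the same shape, with 0.735, 49.4, 17.1 and 9.54 CPM. RR6 also peaked on day 1, with 17.1, 85.6, 30.5 and 32.4 CPM, while RR10, with 114, 23.18, 9.62 and 10.4 CPM, was already far below its day 0 level on day 1. CIPK15, with 4.98, 69.4, 311 and 249.6 CPM, NPR1, with 3.17, 24.6, 69.2 and 59.0 CPM, and XTH8, with 24.3, 73.9, 259 and 109.6 CPM, were highest on day 3 among the 4 days. HXK7, with 2.65, 4.59, 46.1 and 54.9 CPM, and BURP16, with 0, 44.1, 365 and 717 CPM, went on rising. GDH2, with 28.8, 9.62, 64.6 and 94.1 CPM, NYC1, with 150, 53.2, 116 and 176 CPM, and SGR, with 11.3, 3.17, 14.7 and 89.7 CPM, were lowest on day 1, below their day 0 level. PORA, with 229, 352, 123 and 30.6 CPM, and LHCB2, with 1072, 1163, 628 and 251 CPM, were highest on day 1 and lowest on day 6.

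**Figure D4:**
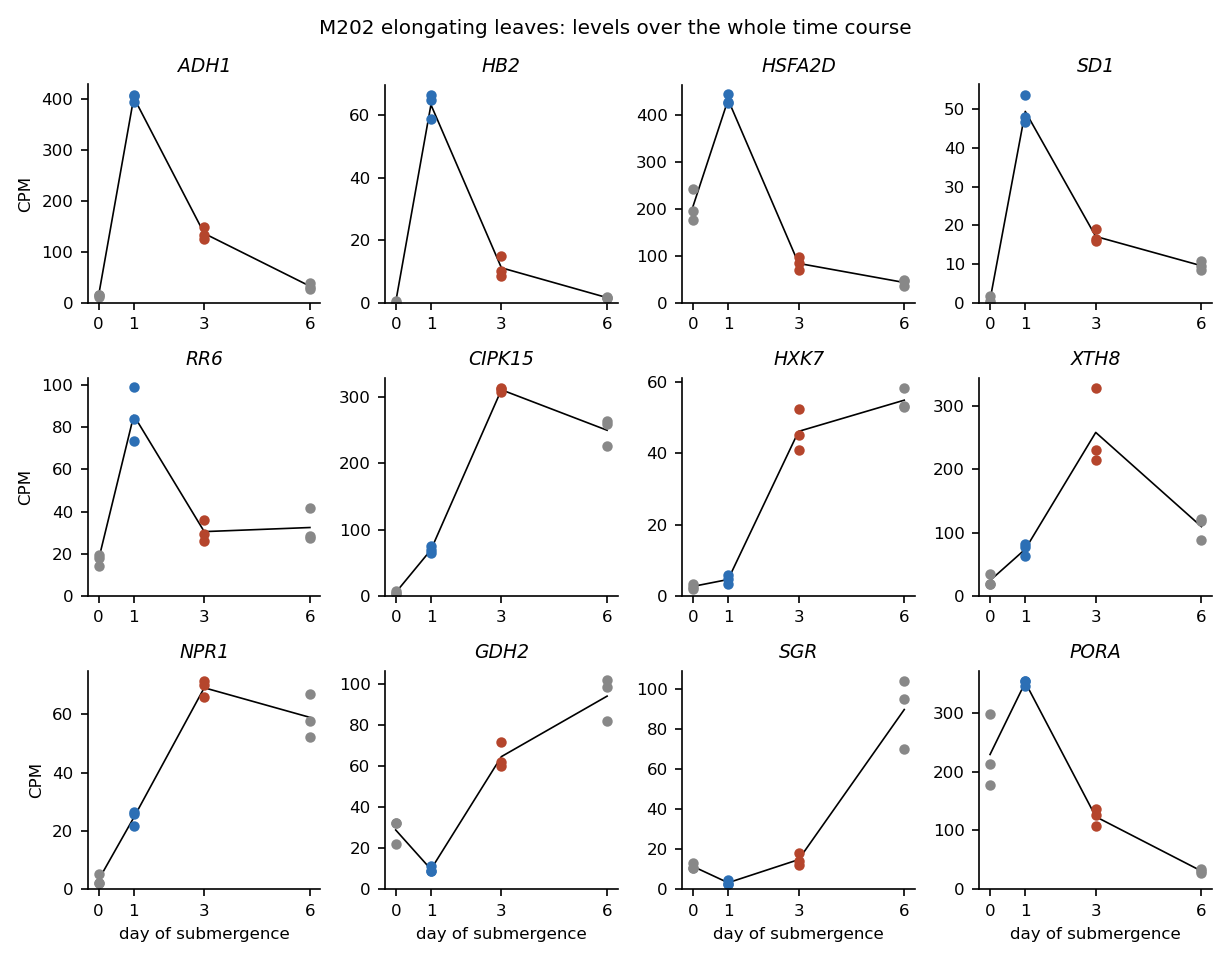
Levels (CPM) of 12 genes in each M202 elongating library on days 0, 1, 3 and 6 of submergence, with day 1 in blue, day 3 in red, the other days in grey and a line through the group means. ADH1, HB2, HSFA2D, SD1, RR6 and PORA are highest on day 1, CIPK15, XTH8 and NPR1 on day 3, and HXK7, GDH2 and SGR on day 6.

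Non-elongating leaves of M202 gave the same interval in separate libraries, which asks how far the change belongs to the leaf type. There 3489 genes were called (16.3%), 1962 higher and 1527 lower. The log2 changes of the 2 leaf types correlated across all tested genes at 0.348 (Pearson), a description of the profiles only. Genes called higher in both numbered 831, which is 34.3% of those in elongating and 42.4% of those in non-elongating leaves, and genes called lower in both numbered 717, which is 30.3% of those in elongating and 47% of those in non-elongating leaves. Genes called in opposite directions numbered 88 in all, 44 each way. The difference of the change between leaf types was itself called for 1401 genes (6.53%), 692 with a higher and 709 with a lower log2 change in elongating leaves.

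Several of the genes above differed between the leaf types. PORA fell in elongating leaves, with a log2 change of -1.51 ± 0.24, and changed by 0.07 ± 0.25 in non-elongating leaves, where it was not called (difference -1.58 ± 0.35, adjusted p = 0.003). SD1 fell in elongating leaves, at -1.53 ± 0.22, and changed by -0.26 ± 0.20 in non-elongating leaves, where it was not called (difference -1.27 ± 0.30, adjusted p = 0.0054). HSFA2D fell in both, by more in elongating leaves (difference -1.21 ± 0.19, adjusted p = 2.1e-05). BIP1 rose in elongating leaves and had a change of -0.52 ± 0.20 in non-elongating leaves, where it was not called (difference 2.44 ± 0.30, adjusted p = 6.3e-07). BURP16 rose in both, by 3.05 ± 0.21 in elongating and 1.09 ± 0.19 in non-elongating leaves (difference 1.96 ± 0.28, adjusted p = 8.5e-06). CESA4 was called in opposite directions, at -0.72 ± 0.15 in elongating and 0.76 ± 0.15 in non-elongating leaves (difference -1.47 ± 0.21, adjusted p = 5.9e-06). RCA rose by less in elongating leaves, at 0.53 ± 0.19 against 1.91 ± 0.20 in non-elongating leaves (difference -1.38 ± 0.27, adjusted p = 7.9e-04). ADH1 and HB2 fell in both leaf types, and their difference was not called (adjusted p = 0.1 and adjusted p = 0.69). For ADH1 it was called by DESeq2 and when only the groups compared were fitted. CIPK15 rose in both, at 2.16 ± 0.16 in elongating and 2.31 ± 0.16 in non-elongating leaves (difference -0.15 ± 0.22, adjusted p = 0.78).

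Elongating leaves of M202(Sub1), again in separate libraries, gave 2815 called genes (13.1%), 1567 higher and 1248 lower, with a correlation across genes of 0.372. Genes called higher in both genotypes numbered 812, which is 33.5% of those in M202 and 51.8% of those in M202(Sub1), and genes called lower in both numbered 821, which is 34.7% of those in M202 and 65.8% of those in M202(Sub1). The difference of the change between genotypes was called for 482 genes (2.25%), 212 with a higher and 270 with a lower log2 change in M202. This count fell to 287 without library 3 of the M202(Sub1) day 3 group.

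Among the named senescence and sugar genes, GDH2, HXK7 and NYC1 rose by more in M202. All 3 were among the genes named for the size of this difference. It was called for 2 of 9 tested genes of chlorophyll breakdown and senescence and 1 of 11 of sucrose breakdown and hexokinases. Over all tested genes the share was 2.25%. GDH1, SGR, SUS1 and SUS4, which also rose in M202, had no called difference. GDH2 changed by 2.74 ± 0.18 in M202 and 1.31 ± 0.21 in M202(Sub1) (difference 1.42 ± 0.29, adjusted p = 0.0024), HXK7 by 3.30 ± 0.20 in M202 and 1.89 ± 0.21 in M202(Sub1) (difference 1.41 ± 0.30, adjusted p = 0.0043, and 0.0721 without library 2 of the M202(Sub1) day 1 group), and NYC1 by 1.13 ± 0.11 in M202 and 0.44 ± 0.11 in M202(Sub1) (difference 0.68 ± 0.15, adjusted p = 0.006). PORA fell in M202, while in M202(Sub1) it changed by 0.03 ± 0.24 (difference -1.54 ± 0.34, adjusted p = 0.0066). HSFA2D fell in both, by more in M202 (difference -1.33 ± 0.18, adjusted p = 7.7e-06). SPX1 changed by -1.49 ± 0.14 in M202 and -0.03 ± 0.14 in M202(Sub1) (difference -1.46 ± 0.20, adjusted p = 7.7e-06). Some expansins went the other way. The difference was called for 4 of 11 tested members of the expansin and xyloglucan list. In M202(Sub1) 7 of the 11 rose and 0 fell, with a median of 2.1, beside 0.31 in M202. EXPA2 changed by 0.47 in M202 and 2.99 in M202(Sub1) (difference -2.52, adjusted p = 0.001). EXPA2 and EXPB3 were named for the size of this difference. EXPA4 changed by -0.11 ± 0.27 in M202 and 2.1 ± 0.34 in M202(Sub1) (difference -2.21 ± 0.44, adjusted p = 0.002), and EXPB3 by 1.69 ± 0.22 in M202 and 3.71 ± 0.31 in M202(Sub1) (difference -2.02 ± 0.40, adjusted p = 0.002). The difference was not called for ADH1 (-0.62 ± 0.20, adjusted p = 0.1) or CIPK15 (0.63 ± 0.24, adjusted p = 0.17), though both were called when only the groups compared were fitted, and ADH1 by DESeq2.

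**Figure D5:**
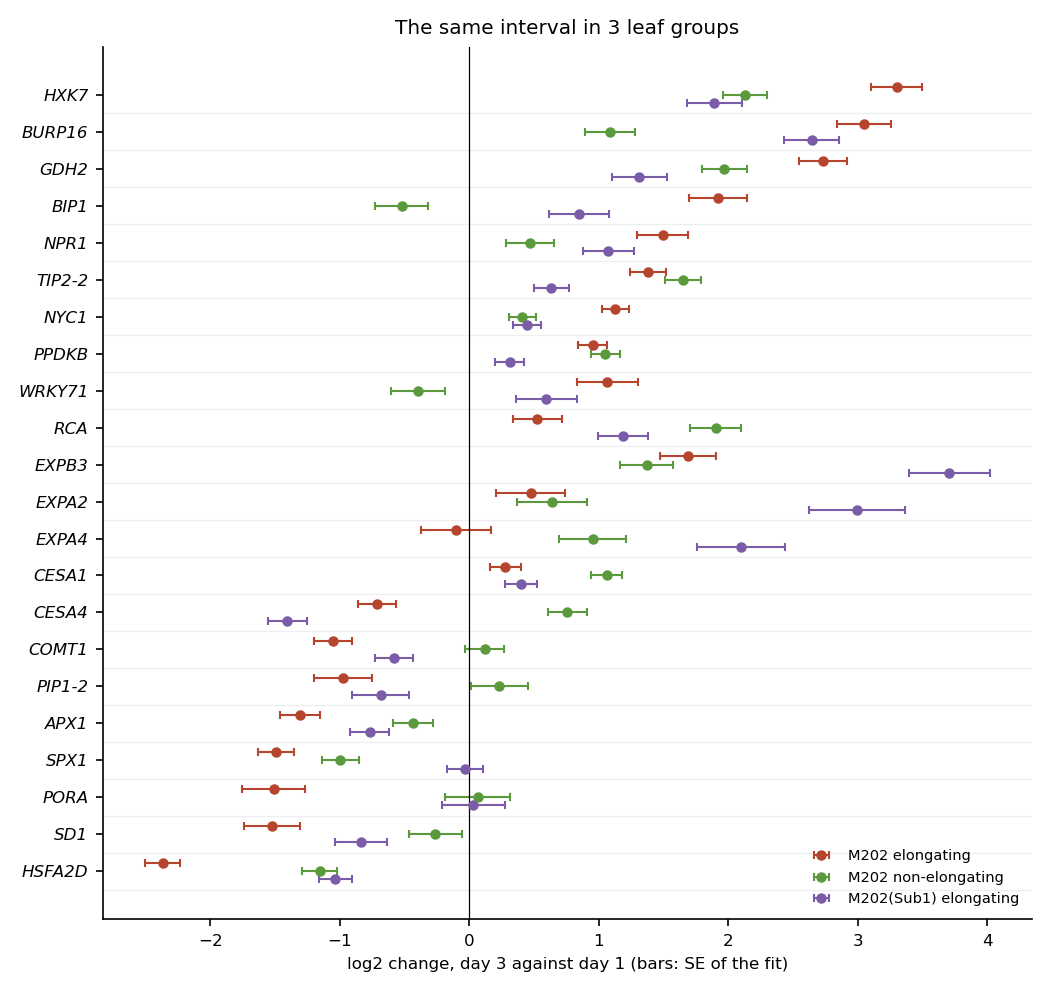
Log2 change between day 3 and day 1 (points, with the SE of the fit as bars) of 22 genes in elongating leaves of M202 (red), non-elongating leaves of M202 (green) and elongating leaves of M202(Sub1) (purple), each from its own 6 libraries. PORA lies at -1.51 in M202 elongating leaves, 0.07 in M202 non-elongating and 0.03 in M202(Sub1) elongating leaves, and EXPA4 at -0.11, 0.95 and 2.1 in the same order.

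Markers of the labelled tissue were detected. Of 5 leaf mesophyll markers 2 had a checked name, LHCB1.2 and RCA, and they summed to 3550 to 4760 CPM on day 3 and 3820 to 3950 CPM on day 1. LHCB1.2 was called lower and RCA called higher on day 3, so this sum says little of the share of mesophyll on either day. Of the mesophyll markers without a checked name, OS12G0291100 (listed as RBCS3) was called higher on day 3. OS01G0501800 (listed as PSBO) was called lower, at 2077 CPM on day 3 and 3598 CPM on day 1 (adjusted p = 0.038). The shoot meristem markers OSH1, OSH15 and OSH71 had summed levels of 0 CPM on day 3 and at most 0.118 CPM on day 1. Of 5 root markers 4 had a checked name, 2 of these (LSI2 and NRT2.1) had no counts in the 6 libraries, and the sum was 3.37 to 5.30 CPM on day 3 and 2.13 to 3.16 CPM on day 1. The 3 markers of dividing cells summed to 12.4 to 20.2 CPM on day 3 and 19.0 to 23.0 CPM on day 1, and none was called. Their part in the changes was not tested.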

How the data were processed

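The deposited table holds raw counts of reads per gene, made by the authors, for 48 libraries in 16 groups of 3. The submitters' processing notes name STAR, featureCounts, DESeq2 and the IRGSP-1.0 build, and give no versions. In the 6 libraries compared between 69.8% and 71.6% of values are even, and over all 48 between 62.3% and 73.8%, so both reads of a pair may have been counted, and halved counts were tried. Genes were kept with edgeR's filter (minimum count 10, total 15), which left 21453 of 37830 genes; 7430 had no counts. One model of all 16 groups was fitted with TMM scaling in edgeR 4.0.16 (R 4.3.3), tested by the quasi-likelihood F test and adjusted by Benjamini-Hochberg at 0.05. DESeq2 1.42.0, other scalings and filters, a replicate block and fits without each library were alternatives; those for the leaf type and genotype differences of single genes were added after seeing the data. The scripts were tested on simulated data.

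Members and gene lists were chosen with earlier results of these data known. Of 448 pairs of symbol and identifier in 35 lists, 300 were used and 148 were not. A pair was used when the reference table placed its symbol, or an alias, on the identifier's chromosome in order with other pairs. The identifier itself was not matched, so a checked name means only this agreement in position. A further 48 names were looked up after values were seen. They enter no list count, but 5 of them (BURP16, CHS1, CIPK14, CLPB-M and HSP24.1) are among the genes named by rule and so enter the counts over named genes. Genes were named by rule. Per direction the 12 largest called changes and the 5 largest called differences in each difference test were taken. Both were drawn only from list members and looked-up names in use, with at least 20 CPM on day 3 or day 1. Genes outside that set could not be named for the size of their change. Further named genes were up to 4 members per list with the smallest adjusted p, and a set fixed by name. The 3 most abundant called genes per direction were taken from all tested genes. Other list members are named to complete a count and were chosen after their values were seen. SUB1C and LHCB1.1 were not analysed here. The design text calls the replicates independent and biological.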

Additional observations from a re-analysis of the deposited data

Results flagged for a closer look

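Named genes whose log2 change between day 3 and day 1 differed between M202 elongating and M202 non-elongating leaves, by edgeR's test of the difference itself, numbered 32 of 134. Over all tested genes the share was 6.53%, but 10 of the 32 were named for the size of this same difference, so the count is no measure of how often it occurs. The difference was positive for 10 of them, which means a higher change in elongating leaves (log2 difference in brackets): WRKY76 (5.95), BIP1 (2.44), BURP16 (1.96), MADS14 (1.87), WRKY71 (1.46), TIFY10A (1.25), HXK7 (1.17), NPR1 (1.02), NYC1 (0.72) and TIFY10B (0.53). It was negative for 22: SODCC1 (-0.62), AGPS2 (-0.63), CHLD (-0.64), SSI (-0.65), SUT2 (-0.71), CESA3 (-0.78), CESA1 (-0.78), OS03G0227800 (-0.80), APX1 (-0.87), CHS1 (-0.94), HSFA2C (-0.98), APX8 (-1.04), FBA (-1.09), COMT1 (-1.17), PIP1-2 (-1.21), HSFA2D (-1.21), SD1 (-1.27), RCA (-1.38), CATA (-1.43), CESA4 (-1.47), PIP2-6 (-1.49) and PORA (-1.58). Adjusted p-values ran up to 0.0496. Of the 32 differences, 18 stayed called whichever of the 12 libraries was left out, and 14 lost the call without at least 1 library; SSI lost it without 10 of the 12, AGPS2 and MADS14 without 11. The WRKY76 difference rests on a gene without counts on day 1 and depends on the fit's prior count.

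Between elongating leaves of M202 and of M202(Sub1) the change differed for 17 of the 134 named genes, beside 2.25% of all tested genes. Of the 17, 10 were named for the size of this same difference. The difference was positive for 5, with a higher change in M202: GDH2 (1.42), HXK7 (1.41), TIP2-2 (0.75), NYC1 (0.68) and PPDKB (0.64). It was negative for 12: CHLD (-0.70), KO2 (-0.73), LHCB3 (-0.75), MT2B (-1.16), HSP24.1 (-1.26), HSFA2D (-1.33), SPX1 (-1.46), PORA (-1.54), EXPB3 (-2.02), EXPA4 (-2.21), ACS5 (-2.49) and EXPA2 (-2.52). Adjusted p-values ran up to 0.0406. Of the 17 differences, 10 stayed called whichever of the 12 libraries was left out. HXK7 lost the call without library 2 of the M202(Sub1) day 1 group (adjusted p up to 0.0721), MT2B without library 3 of the M202(Sub1) day 3 group (adjusted p up to 0.0544), PPDKB without 3 libraries, KO2 and TIP2-2 without 6, LHCB3 without 7 and HSP24.1 without 10. Apart from these fits without 1 library, groups of 3 libraries were not examined for single outlying libraries.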

How the results depend on the processing

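The 4786 called genes became 5146 with DESeq2, 6088 when only the 2 groups compared were fitted, 4455 with no filter on low counts and 4890 with halved counts. Leaving out 1 library gave 3704 to 3981 called genes, 1441 to 1556 at least 2-fold, 1034 to 1187 leaf type differences and 287 to 533 genotype differences. The leaf type differences, 1401, rose to 2177 when only the groups compared were fitted, and the genotype differences, 482, to 807 with DESeq2. The cause was not tested.

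Replicate numbers did not pair the libraries. For this, the mean of its group was first subtracted from the log level of each gene in each library. These deviations correlated between same-numbered day 3 and day 1 libraries at 0.0214, 0.0328 and -0.00993. With the replicate block the counts were 4748 called genes, 1602 at least 2-fold, 1374 leaf type and 482 genotype differences.

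Of 134 named genes 100 were called, a share that the naming rule largely fixed (22.3% of all tested genes were called), and 78 of these stayed called whichever of the 6 libraries was left out. No called gene changed direction in the alternatives run. Some uncalled genes did. Without 1 library PETE, at 0.00, ran between -0.077 and 0.094, with -0.054 and -0.017 among its values, and it was -0.0099 with halved counts. GLO1 ran between -0.082 and 0.208, CATA between -0.167 and 0.186 with 0.046 and 0.073 among its values, SPX3 between -0.155 and 0.258 with 0.026, and EXPA4 between -0.233 and 0.064. The HB2 difference between leaf types, not called, ran between -0.549 and 0.081 in fits without 1 library, chosen after seeing the data. In simulated counts with 3 libraries a group, 60% of 2-fold and 90% of 4-fold changes between day 3 and day 1 were recovered. Smaller changes were therefore recovered less often. For differences between leaf types the shares were 43% and 76%, and between genotypes 40% and 76%. A difference that was not called therefore does not show that the 2 changes were equal.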

Other observations

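Genes whose identifier does not end in 00 had a lower median level, 3.3 CPM beside 11.6 CPM for the others, and 287 of 1756 were called (16.3%), beside 4499 of 19697 (22.8%).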
